A study of Mus musculus with 6 samples.

Results

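The genes described here are 10 noncoding RNA genes of mouse bone marrow neutrophils. Of these, 3 are long RNAs that stay in the nucleus, Malat1, Neat1 and Kcnq1ot1, and 7 are noncoding hosts of small nucleolar RNAs (snoRNAs), Gas5, Snhg1, Snhg3, Snhg5, Snhg6, Snhg8 and Snhg12. They were taken by symbol, and all 10 were among the 52636 genes listed in the expression table. Levels are in TPM, a transcript abundance per length in which each library is scaled to a fixed total. A mean of 1 TPM or more was needed for the test over 9775 genes, and 9 of the 10 reached it, all but Kcnq1ot1. The study asked how the loss of LRP5, which can act as a coreceptor for Wnt proteins, alters neutrophils. The paper reports that LRP5 carries polyunsaturated fatty acids into cells and that its loss changed Wnt signaling to β-catenin little in neutrophils. The 10 genes are compared between the study's 2 groups of 3 libraries.

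Malat1 is an abundant RNA of nuclear speckles, the bodies that store splicing factors. Neat1 is the RNA scaffold on which paraspeckles, another kind of nuclear body, are built. Kcnq1ot1 is a very long unspliced RNA that silences neighbouring genes on the paternal copy of an imprinted domain. The snoRNA hosts work differently. Their introns are cut out and trimmed to snoRNAs, which guide chemical modification of ribosomal RNA, and the spliced remainder goes to the cytoplasm, where several of these hosts are degraded by nonsense-mediated decay when ribosomes read them. Gas5 was named for its accumulation in growth-arrested cells, and many hosts begin with a run of C and T, the 5′ terminal oligopyrimidine start shared with ribosomal protein genes.

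In the WT group the mice were wild type of strain C57BL/6N. The LRP5-null group was labelled LRP5f/f/Lyz2Cre+, which means floxed Lrp5 alleles and a Cre recombinase under the control of Lyz2, a gene of the myeloid lineage, so that deletion is limited to that lineage. All mice were 10 weeks old, and the libraries were made from bone marrow neutrophils. The labels give no Cre or floxed allele to the WT mice, so the Cre insertion and the deletion cannot be told apart. The methods say of the study as a whole that its statistics rest on biological replicates, and the sources used here do not tie a library to its mice, so p-values measure the spread between these libraries. The sources differ on how the libraries were made. The labels name a Percoll gradient and a kit for mRNA. The methods name a sort for CD11b and Ly6G, a kit for total RNA, which bears on RNAs without a poly(A) tail, and single-end reads, whereas the read summary lists paired reads of 94 bases.

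The libraries held between 249841492 and 340580330 reads. Lrp5 itself was 1.12, 1.31 and 1.42 TPM in the libraries labelled WT and 1.68, 1.77 and 2.07 TPM in those labelled LRP5-null, so its transcript level does not check the labels. Lyz2, into which Cre is inserted, was 25963 ± 1039 TPM (SD, n = 3) in WT and 13792 ± 375 TPM (SD, n = 3) in LRP5-null (log2 fold change −0.91, limma adjusted p = 0.00351). WT replicate 3 stood apart from the other WT libraries in its share of ribosomal reads, 3.30% against 1.20% and 1.30%, and lay above the 2.69% to 2.98% of the LRP5-null libraries. Summed neutrophil markers (13 of 13 listed, all tested) lay between 389280 and 439134 TPM. Over all genes, 26 were called higher and 26 lower in LRP5-null, against 30 and 53 after median-ratio scaling and 68 and 27 after rescaling without the most abundant genes. Without WT replicate 3, 1180 were called higher and 740 lower.

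The first bases of the transcripts show which hosts begin with C and T. RefSeq start sites (assembly GRCm38.p6) were found for 8 of the 10 genes, 9 sites in all. Each line gives 10 bases before the start and 20 bases from it, 5′ to 3′, with capitals for the unbroken run of C and T from the first transcribed base on, and the lines are shown because they separate hosts with a pyrimidine start from the rest.
Snhg12, chr4:132308668-132308697, plus strand: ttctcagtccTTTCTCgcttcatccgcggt
Snhg8, chr3:123508317-123508346, minus strand: gttcagaagtCTCTTTggctgcgatccgcc
Gas5, downstream start, chr1:161035156-161035185, plus strand: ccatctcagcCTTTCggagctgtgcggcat
Snhg1, chr19:8723477-8723506, plus strand: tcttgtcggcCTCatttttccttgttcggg
Snhg5, chr9:88522878-88522907, minus strand: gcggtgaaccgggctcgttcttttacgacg
Malat1, chr19:5802653-5802682, minus strand: ggctctgcgtCaggcattcaggcagcgaga

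The runs were 6 bases in Snhg12, 6 in Snhg8, 5 at the downstream start of Gas5 and 3 in Snhg1. Snhg3, Snhg5, Kcnq1ot1 and the upstream start of Gas5 had 0 such bases and Malat1 had 1. A run of at least 4 was present at 3 of the 9 sites and at 6.86% of the 32851 start sites of the whole table, and a run of at least 6 at 2.93% of them. The stricter form of a first C and then at least 4 bases of C or T was present at 2 of the 9 sites, in Snhg8 and Gas5, and at 2.51% of all. Snhg12 starts with T. The search read the transcribed strand only. The match describes these letters at an annotated start and not the start used in neutrophils.

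Malat1 and Neat1 are neighbours. On NCBIM37 (mm9) Malat1 lies at chr19:5795690-5802671 and Neat1 at chr19:5824708-5845478, both on the minus strand, and the GENCODE M1 annotation gives each a single unspliced longest transcript, of 6982 and 20771 bases. Gas5 lies at chr1:162964553-162968670 on the plus strand. Snhg12 (chr4:131864593-131866939, plus strand) and Snhg3 (chr4:131903929-131909601, minus strand) lie near each other on chromosome 4.

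The levels spanned a wide range. Malat1 averaged 362 TPM over the 6 libraries, above 97.5% of the genes tested. Neat1 followed at 32.3 TPM, Gas5 at 21.9 TPM and Snhg5 at 10.1 TPM. Snhg8 (8.72 TPM), Snhg6 (5.92 TPM), Snhg1 (4.17 TPM), Snhg3 (3.68 TPM) and Snhg12 (3.53 TPM) came next, and Kcnq1ot1 was last at 0.0293 TPM. The ranges of Snhg5 and Snhg8, of Snhg8 and Snhg6, of Snhg1 and Snhg3 and of Snhg3 and Snhg12 overlapped, and those of all other neighbours in this order did not. Within a library, Snhg5 exceeded Snhg8 and Snhg8 exceeded Snhg6 in 6 of 6 libraries, whereas Snhg3 exceeded Snhg12 in 2 of 6, so the order of that last pair is not set by these data.

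**Figure D1:**
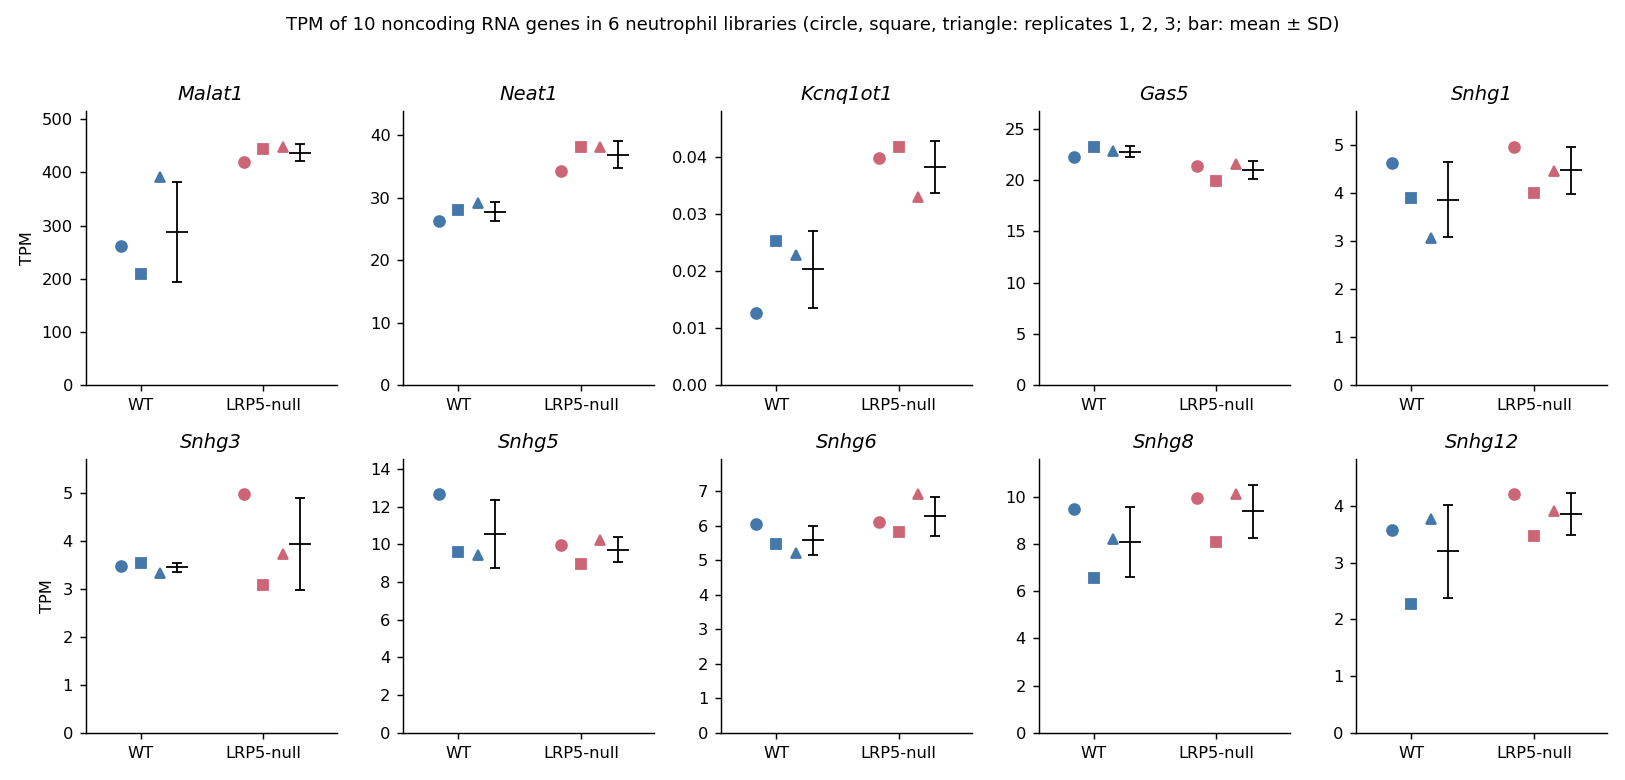
TPM of each gene (vertical axes, each from 0) in the WT and LRP5-null libraries, with replicates 1, 2 and 3 as circle, square and triangle and the mean ± SD as a bar. Malat1, Neat1 and Kcnq1ot1 were higher in each LRP5-null library than in each WT library, Gas5 was lower in each, and the groups overlapped in the 6 Snhg genes.

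Malat1 was 262, 208 and 392 TPM in WT replicates 1 to 3 and 420, 444 and 448 TPM in the LRP5-null libraries. Each LRP5-null library lay above each WT library, and the nearest approach was WT replicate 3. The means were 287 ± 94.1 TPM (SD, n = 3) in WT and 437 ± 15.5 TPM (SD, n = 3) in LRP5-null, a ratio of 1.52. The log2 fold change of TPM + 1, the scale of all fold changes here, was 0.65 (SE 0.20, 95% interval 0.18 to 1.12), with an unadjusted p of 0.0133 and an adjusted p of 0.139 from limma. The exact permutation test gave p = 0.1, two-sided, the smallest value that 3 libraries against 3 allow. By the adjusted p, Malat1 did not pass the threshold of 0.05.

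Malat1 also varied more among the WT libraries than among the LRP5-null ones, a contrast taken from the values and not tested. Its coefficient of variation was 32.7% in WT and 3.55% in LRP5-null. The SD of its log2 values in WT, 0.46, was larger than that of 97.3% of the genes tested and of 96.4% of the genes with at least 100 TPM, while in LRP5-null it was 0.052. The median SD over all genes was itself larger in WT (0.14) than in LRP5-null (0.075), so the libraries as a whole leaned the same way. The size of the Malat1 value rested on both outer WT libraries. Without WT replicate 2, the lowest, the log2 fold change was 0.45 (limma adjusted p = 0.304). Without WT replicate 3, the highest, it was 0.90 (limma adjusted p = 0.0103), and with replicate 3 as the only WT library it was 0.16 (limma adjusted p = 0.315, the lone library being taken to vary like the others). With the share of ribosomal reads as a covariate it was 0.32 (limma adjusted p = 0.234).

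Neat1 was steadier. It was 26.3, 28.0 and 29.2 TPM in WT and 34.4, 38.1 and 38.2 TPM in LRP5-null. The groups did not overlap, and WT replicate 3 lay with the other WT libraries rather than with the LRP5-null ones. The means were 27.8 ± 1.46 and 36.9 ± 2.18 TPM (SD, n = 3 each), a ratio of 1.33, and the coefficients of variation were 5.26% and 5.90%. The log2 fold change was 0.39 (SE 0.078, 95% interval 0.21 to 0.58), with an unadjusted p of 0.00117, an adjusted p of 0.0729 from limma and an exact permutation p of 0.1. It was 0.33 against WT replicate 3 alone and 0.34 with the ribosomal share as a covariate (limma adjusted p = 0.130). Without WT replicate 3 it was 0.43 (limma adjusted p = 0.0192), where 12.1% of all genes were called higher, and after rescaling without the most abundant genes it was also 0.43 (limma adjusted p = 0.0475), where 0.696% were. Removal of the trends with GC content and length lowered it to 0.17.

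Kcnq1ot1 was listed at 0.0127, 0.0254 and 0.0228 TPM in WT and at 0.0399, 0.0418 and 0.0330 TPM in LRP5-null. The means were 0.0203 ± 0.0067 and 0.0382 ± 0.0046 TPM (SD, n = 3 each), a ratio of 1.88 with no overlap and an exact permutation p of 0.1. At this level a pseudocount of 1 hides any change, so no log2 fold change is given, and TPM does not tell how many reads lie behind the values.

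Gas5, the most abundant host, went the other way. It was 22.3, 23.3 and 22.8 TPM in WT and 21.3, 19.95 and 21.6 TPM in LRP5-null, with each LRP5-null library below each WT library. The means of 22.8 ± 0.51 and 21.0 ± 0.89 TPM (SD, n = 3 each) gave a ratio of 0.92. Its log2 fold change was −0.11 (SE 0.069, 95% interval −0.28 to 0.05, limma adjusted p = 0.346; exact permutation p = 0.1). Removal of the trends with GC content and length brought the fold change to −0.0064 (limma adjusted p = 0.967). The coefficient of variation of Gas5 in WT, 2.23%, was the smallest of the 10 genes. Its SD in WT on the log2 scale was above that of only 4.38% of all genes tested. WT replicate 3, far from its group in Malat1, lay between the other WT libraries in Gas5.

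The 6 Snhg genes overlapped between groups. Snhg5 was 12.6, 9.60 and 9.42 TPM in WT and 9.95, 8.95 and 10.2 TPM in LRP5-null (log2 fold change −0.10, SE 0.12, limma adjusted p = 0.634). WT replicate 1 alone carried its higher WT mean, and without that library the value was 0.025. Snhg8 was 9.48, 6.54 and 8.20 TPM in WT and 9.92, 8.09 and 10.1 TPM in LRP5-null (0.20, SE 0.14, limma adjusted p = 0.411). Snhg6, whose RNA hosts Snord87, was 6.04, 5.48 and 5.20 TPM in WT and 6.10, 5.81 and 6.91 TPM in LRP5-null (0.14, SE 0.092, limma adjusted p = 0.374). In Snhg6, the lowest LRP5-null library lay below only WT replicate 1.

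Snhg1, which holds a row of box C/D snoRNAs, was 4.62, 3.90 and 3.07 TPM in WT and 4.97, 3.99 and 4.47 TPM in LRP5-null (0.18, SE 0.13, limma adjusted p = 0.440). Snhg3, the host of Snora73, was 3.47, 3.53 and 3.33 TPM in WT and 4.96, 3.08 and 3.73 TPM in LRP5-null (0.13, SE 0.14, limma adjusted p = 0.588). Here LRP5-null replicate 1 decided the direction, and without it the value was −0.017. Snhg12 was 3.57, 2.26 and 3.77 TPM in WT and 4.20, 3.48 and 3.92 TPM in LRP5-null (0.23, SE 0.15, limma adjusted p = 0.391), with WT replicate 2 low. The 95% intervals of the 6 genes all held 0. Their outermost ends were −0.38 in Snhg5 and 0.58 in Snhg12, and each interval bounds its own gene only.

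Among the 9 genes tested, 0 were called at an adjusted p under 0.05 by limma, against 0.532% of all genes. At an unadjusted p under 0.05, 2 were higher, Malat1 and Neat1, and 0 lower, against 14.4% of all genes higher and 891 of the 9775 lower. The groups did not overlap in 2 that were higher, against 17.4% of all genes, and in 1 that was lower, Gas5, against 12.3%. Fold changes were positive in 7 and negative in 2, Gas5 and Snhg5. Their median was 0.18, and the median over all genes was 0.04, with 5752 positive and 4023 negative.

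**Figure D2:**
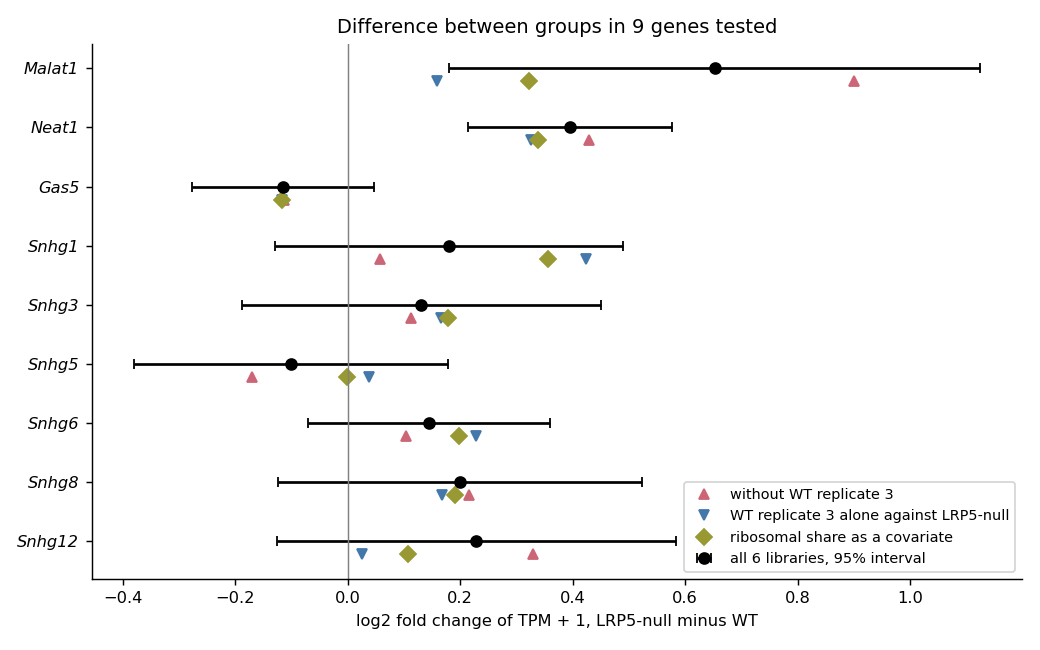
Log2 fold change of TPM + 1 (LRP5-null minus WT, horizontal axis) of the 9 genes tested, with 95% intervals from limma as bars and 3 other fits as triangles and diamonds. Malat1 moved from 0.16 with WT replicate 3 as the only WT library to 0.90 without it, whereas Neat1 stayed between 0.33 and 0.43 in the 4 fits shown, and the intervals of the hosts spanned 0.

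Ratios within a library do not depend on how libraries are scaled to each other. They were chosen after the values had been seen. Malat1 over Gas5 was 11.8, 8.96 and 17.2 in WT and 19.7, 22.2 and 20.7 in LRP5-null. Neat1 over Gas5 was 1.18, 1.20 and 1.28 in WT and 1.61, 1.91 and 1.77 in LRP5-null. Since Malat1 and Neat1 were higher and Gas5 lower in each LRP5-null library, the groups had to separate in both ratios, which describe the libraries and were not tested. Malat1 over Neat1 was 10.0, 7.45 and 13.4 in WT and 12.2, 11.7 and 11.7 in LRP5-null. It overlapped (exact permutation p = 0.5), with the LRP5-null libraries close together inside the WT range.

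The 7 hosts together summed to 62.1, 54.6 and 55.8 TPM in WT and 61.4, 53.4 and 60.9 TPM in LRP5-null. The sums overlapped almost wholly (57.5 ± 4.03 and 58.6 ± 4.53 TPM, SD, n = 3 each; exact permutation p = 1). Gas5 over the sum of the 6 Snhg hosts was 0.559, 0.743 and 0.692 in WT and 0.532, 0.597 and 0.550 in LRP5-null, which also overlapped (exact permutation p = 0.2). The sum over all 10 genes was 351, 291 and 477 TPM in WT and 515, 535 and 548 TPM in LRP5-null, of which Malat1 made up 71.6% to 82.2% and 81.4% to 82.9%.

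**Figure D3:**
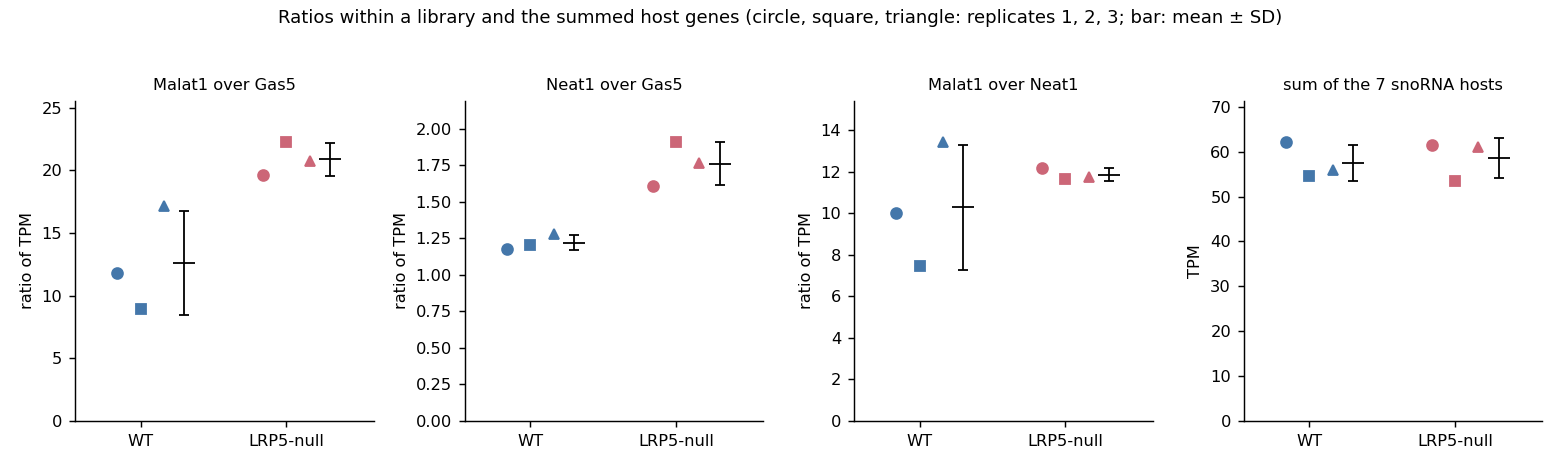
Ratios of TPM within a library and the summed TPM of the 7 hosts (vertical axes from 0) by group, with replicates 1, 2 and 3 as circle, square and triangle and mean ± SD as a bar. The groups separate in both ratios over Gas5, as the levels of the genes fix, and the values to see are Malat1 over Neat1, 7.45 to 13.4 in WT and 11.7 to 12.2 in LRP5-null, and the host sum, which overlapped.

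The read summary gives 2 shares that bear on nuclear RNA. Reads in introns made up 8.60%, 7.78% and 9.0% of WT libraries and 10.95%, 11.23% and 10.62% of LRP5-null libraries. The groups did not overlap, and the means of 8.46 ± 0.62% and 10.9 ± 0.31% (SD, n = 3 each) differed by 2.47 percentage points (exact permutation p = 0.1). Reads in coding sequence and untranslated regions were lower in each LRP5-null library, at 82.39%, 81.85% and 82.41% against 86.05%, 87.03% and 83.84%. The share of reads between genes, at 3.87% to 4.16% in WT and 3.97% to 3.99% in LRP5-null, overlapped.

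Malat1, Neat1 and Kcnq1ot1 were, like the intronic share, higher in each LRP5-null library. So were 17.4% of all genes tested, and Kcnq1ot1 was too low for the test. Tug1 and Oip5os1, which are also long noncoding RNAs, were lower in each, as were 12.3% of all genes tested. Within WT, Malat1 followed the order of the intronic share (replicate 2 lowest, replicate 3 highest), and within LRP5-null it did not, since replicate 3 had the highest Malat1 and the lowest intronic share. Neat1 was lowest in WT replicate 1, which had the middle intronic share. Ribosomal reads, at 1.20%, 1.30% and 3.30% in WT and 2.69%, 2.93% and 2.98% in LRP5-null, overlapped between groups, and Malat1 was likewise near the LRP5-null values in WT replicate 3 only. Neat1 and Gas5 kept WT replicate 3 with the WT group, although in Neat1 it was the WT library nearest to LRP5-null. The part of either read class in the differences between groups was not tested beyond the covariate above, since the intronic share separates the same libraries as the labels and cannot be told apart from them.

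**Figure D4:**
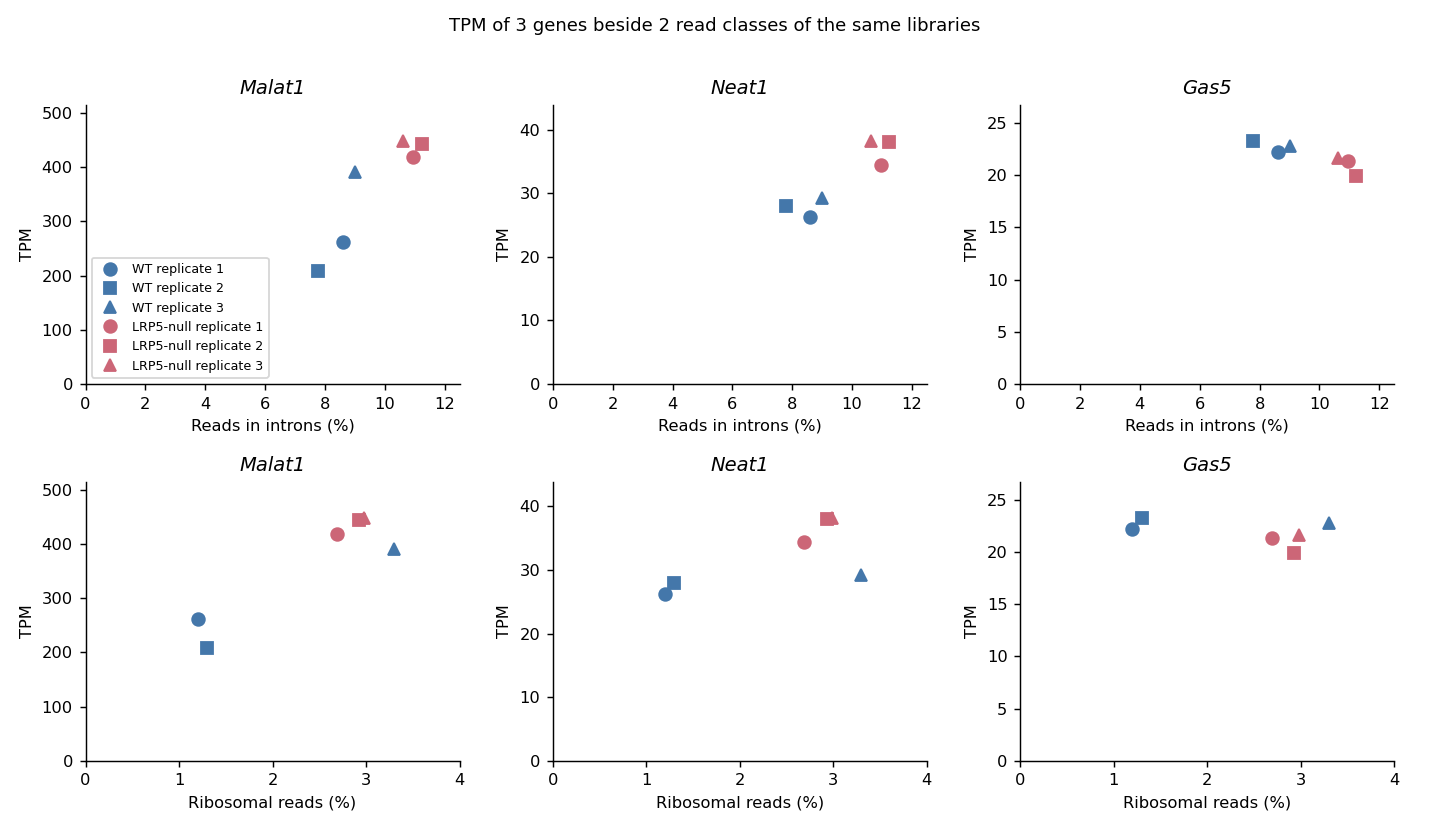
TPM of Malat1, Neat1 and Gas5 (vertical axes) against the percent of reads in introns (top) and of ribosomal reads (bottom), 1 point per library. WT replicate 3, at 3.30% ribosomal reads, sat near the LRP5-null libraries for Malat1 (392 TPM) and with the WT libraries for Neat1 (29.2 TPM) and Gas5 (22.8 TPM).

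Other RNAs of like kind show how far these patterns were shared. Rn7sk, the RNA that holds the elongation factor P-TEFb inactive, was 212, 185 and 282 TPM in WT and 312, 342 and 289 TPM in LRP5-null (log2 fold change 0.49, limma adjusted p = 0.139). Mir142hg, the host of a blood cell microRNA, was 34.4, 35.9 and 56.1 TPM in WT and 57.2, 61.0 and 69.0 TPM in LRP5-null (0.59, limma adjusted p = 0.139). In both, as in Malat1 and Neat1, WT replicate 3 was the WT library nearest to LRP5-null. Of 21 other long noncoding RNAs listed, 8 were tested, 3 positive and 5 negative with a median of −0.03, and Tug1 (−0.24, limma adjusted p = 0.157) and Oip5os1 (−0.27, limma adjusted p = 0.201) were lower in each LRP5-null library. With GC and length trends removed, Rn7sk was 0.29, Mir142hg 0.37, Tug1 −0.044 and Oip5os1 −0.14. Of the structural RNAs, 3 of 7 were tested, and Rmrp (0.26, limma adjusted p = 0.443) and Rpph1 (−0.20, limma adjusted p = 0.700) overlapped between groups. None of either list passed the adjusted threshold by limma, and 2 were higher and 2 lower at an unadjusted p under 0.05. Of all 9775 genes, 1403 were higher and 891 lower at that threshold.

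Of 13 other noncoding snoRNA hosts, 12 were listed and 1 was tested, Zfas1, at 4.91, 4.81 and 6.04 TPM in WT and 6.49, 5.83 and 7.31 TPM in LRP5-null (0.27, SE 0.11, limma adjusted p = 0.199). Of 28 protein-coding hosts, 27 were tested, 21 positive and 6 negative with a median of 0.11. They had 0 calls by limma, with 4 higher and 2 lower at an unadjusted p under 0.05. Over all 9775 genes, 1403 were higher and 891 lower by that measure. Rps3 (0.25, limma adjusted p = 0.103) and Rpl3 (0.32, limma adjusted p = 0.110), which encode ribosomal proteins, were higher in each LRP5-null library, and Hspa8 (−0.37, limma adjusted p = 0.102), which encodes a constitutive chaperone, was lower in each.

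The proteins that work with these RNAs had medians near that of all genes, and 0 passed the adjusted threshold by limma, against 0.532% of all genes. At an unadjusted p under 0.05, 1403 of all 9775 genes were higher and 891 lower. Of 17 nuclear speckle proteins, 8 were positive and 9 negative (median −0.0039, with 2 higher and 1 lower at an unadjusted p under 0.05). The speckle scaffold Srrm2 was 42.0, 45.7 and 57.7 TPM in WT and 65.9, 67.7 and 65.5 TPM in LRP5-null (0.46, limma adjusted p = 0.104), again with WT replicate 3 nearest to LRP5-null. The splicing factors Srsf7 (0.23, limma adjusted p = 0.143) and Sf3b1 (−0.20, limma adjusted p = 0.196) did not overlap between groups either. Of 17 paraspeckle proteins, 10 were positive and 7 negative (median 0.03, 1 higher and 1 lower at an unadjusted p under 0.05). Rbm12 (−0.23, limma adjusted p = 0.145) was lower in each LRP5-null library, Cirbp (0.44, limma adjusted p = 0.161) higher in each, and the core protein Nono (−0.16, limma adjusted p = 0.292) overlapped.

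Of 14 proteins of snoRNA particles, 10 were tested, 6 positive and 4 negative (median 0.05, 0 at an unadjusted p under 0.05). Among them Nop58, a core protein of box C/D particles and itself a snoRNA host, was −0.39 (limma adjusted p = 0.239), Snu13 0.14 (0.282) and Nhp2 0.17 (0.330), with the same adjusted p in parentheses. Of 19 nonsense-mediated decay factors, 18 were tested, 12 positive and 6 negative (median 0.05, 1 at an unadjusted p under 0.05, higher, against 14.4% of all genes). Smg9 (0.23, limma adjusted p = 0.195), Smg6 (0.23, limma adjusted p = 0.252) and Dhx34 (0.23, limma adjusted p = 0.253) led that list.

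**Figure D5:**
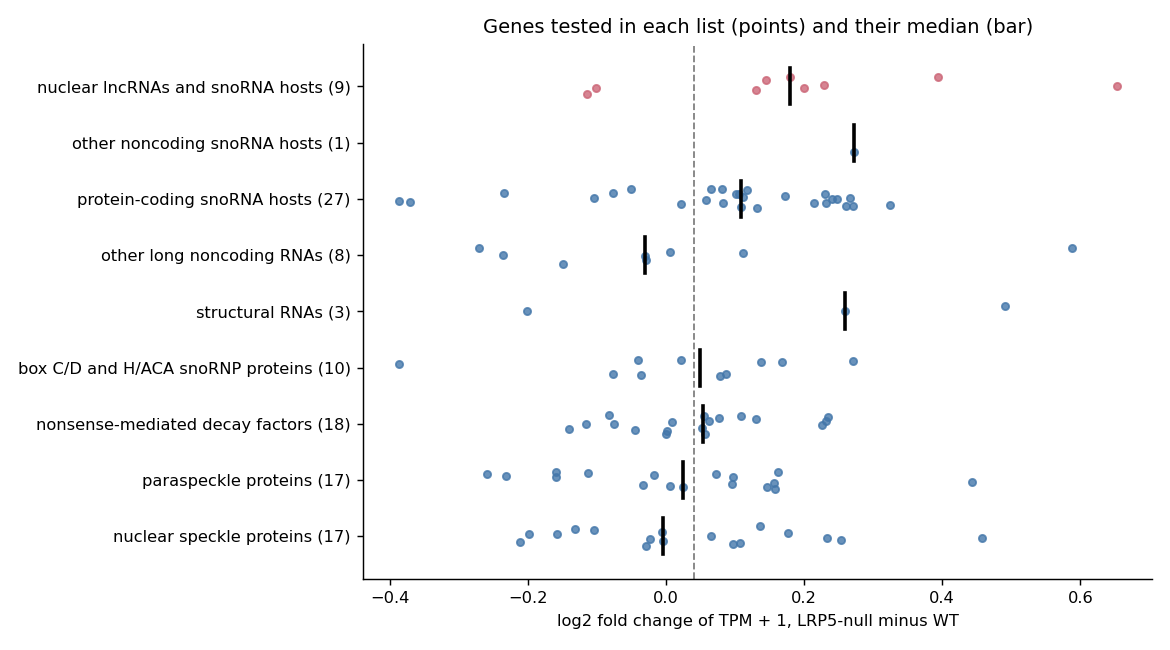
Log2 fold change of TPM + 1 (LRP5-null minus WT, horizontal axis) of each gene tested in each list (points, with the number in parentheses), the list's median (black bar) and the median of all genes tested (dashed line, 0.04). The nuclear RNAs and hosts had a median of 0.18, and the decay, paraspeckle and speckle lists lay within 0.05 of the all-gene line.

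The snoRNAs of these hosts were scarcely present in the table. Of 28 on the list for the 7 hosts, 14 were found, in 16 rows. Their means were below 0.1 TPM in 9 rows and at least 1 TPM in 3, Snora73b of Snhg3 (1.33 TPM), Snora24 of Snhg8 (1.31 TPM) and the second of the Snord80 identifiers of Gas5 (1.11 TPM). In GENCODE M1, 10 rows could be placed inside the host on its strand, Snora73b among them. Snora24 and that Snord80 row could not be placed, and the Snord80 row inside Gas5 was 0.0001 TPM. No row exceeded its host. Snord47, in an intron of Gas5, was 0.0193 TPM against 21.9 TPM for its host. It is annotated at chr1:162968213-162968289 on the plus strand of NCBIM37, and its 77 bases are shown, with box C (TGATGA) and box D (CTGA) in capitals, as an example of what Gas5 introns hold.
Snord47: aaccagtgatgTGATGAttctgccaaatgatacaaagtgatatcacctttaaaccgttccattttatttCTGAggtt
The same order of these boxes on the sense strand was present in 67.7% of the 65 genes named Snord in GENCODE M1. The table held 149 rows named as snoRNAs or Cajal body RNAs, 22 of them at 0 in every library and 15 that averaged 1 TPM or more. The length of Snord47 was below the median insert of 193 to 204 bases that the read summary lists for paired reads, and the part of insert length in the low snoRNA values was not tested.

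The summed levels of some markers of other cells did not overlap between the groups. Among all genes tested, 17.4% were higher without overlap. Summed T and NK cell markers (8 of 8 listed, 2 tested) were 11.3 to 13.3 TPM in WT and 15.6 to 17.3 TPM in LRP5-null, megakaryocyte markers (5 of 5 listed, 2 tested) 3.10 to 4.41 and 4.88 to 5.65 TPM, and eosinophil, basophil and mast cell markers (6 of 6 listed, 3 tested) 9.85 to 12.4 and 13.1 to 14.2 TPM, each higher in LRP5-null. Of the genes tested in these lists 1 was called, against 0.532% of all genes. It was Prg2 of eosinophils (log2 fold change 0.91, limma adjusted p = 0.0341), and the other 2 tested in its list were at 0.03 and −0.05. The methods name a sort for CD11b and Ly6G and the labels a Percoll gradient, and the effect of either on these sums was not tested. Cell cycle genes (20 of 20 tested) summed to 326 to 334 and 359 to 364 TPM and were positive in 16, against 5752 of all 9775 genes. Without overlap, 9 of them were higher and 0 lower. B cell (12.9 to 14.7 TPM over all libraries), monocyte and macrophage (103 to 127 TPM), erythroid (42.9 to 57.3 TPM) and progenitor markers (6.47 to 8.75 TPM) overlapped between groups. Immature neutrophil genes summed to 73591 to 80666 TPM in WT and 76230 to 80389 TPM in LRP5-null. Mature neutrophil genes summed to 36211.1 to 40613.5 and 35918.5 to 37026.3 TPM, and both sums overlapped. Of 14 immature genes 12 were positive (median 0.21), and without overlap 8 were higher and 1 lower. Of 14 mature genes 10 were negative (median −0.16), and without overlap 6 were lower and 0 higher. Among all genes tested, those shares were 17.4% higher and 12.3% lower. Over all genes, 5752 were positive and 4023 negative. Cxcl2 of the mature list was called lower (−0.48, limma adjusted p = 0.0371), where 0.532% of all genes were called in either direction. No marker of these lists was at 0 in all libraries. Xist (3.95 to 5.48 TPM) and the Y-linked genes Ddx3y, Eif2s3y, Kdm5d and Uty were present in every library. Kdm5d, at 1.17 to 1.43 TPM in WT and 2.16 to 2.60 TPM in LRP5-null, did not overlap. All 5 of these sex-linked genes were positive (median 0.23, against 0.04 over all genes), and the mix of sexes in the libraries was not tested. The part of these cells in the levels of Malat1, Neat1 and the hosts was not tested, and fewer cells of a type and less RNA per cell cannot be told apart in bulk samples.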

How the data were processed

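Neutrophil RNA was sequenced in 6 libraries, 3 of each label. The authors deposited a table of TPM, aligned to mm9 per the labels. They name DESeq2, but TPM holds no counts, so no count model was run and the depth behind a value is unknown. The authors also deposited a summary with counts of reads, read classes in percent, coverage bias at transcript ends as a ratio, a score for coverage variation and the insert sizes.

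The 9775 genes whose mean reached 1 TPM were compared on log2(TPM + 1) with limma 3.58.1 in R 4.3.3, with a trend of variance with the mean, adjusted over all genes by Benjamini-Hochberg and called at an adjusted p under 0.05. Fold changes on this scale understate the change of low genes. The fit was tested on simulated data. Single values were compared with two-sided exact permutation tests. The members and lists were chosen with earlier results of these data known. The text names all 10 genes, Lrp5, Lyz2, sex-linked genes of at least 1 TPM, and in each list of RNAs or partner proteins the 3 genes with the smallest p, and gives marker lists as sums. The list of snoRNAs by host and the gene lists come from general knowledge, and Oip5os1 is listed under an older symbol. Coordinates of genes are of NCBIM37 (GENCODE M1, which held 5 of the 10 genes by identifier, although the table's identifiers postdate mm9), and start sites are from RefSeq (GRCm38.p6).

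Alternatives were a pseudocount of 0.1, no filter or a minimum mean of 5 TPM, median-ratio and quantile scaling, rescaling after removal of mitochondrial genes and 20 other most abundant genes, no trend, omission of single libraries, a block for replicate number, a covariate for ribosomal reads, WT replicate 3 as the only WT library, and removal of GC and length trends.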

Additional observations from a re-analysis of the deposited data

How the results depend on the processing

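Malat1 and Neat1 stayed positive and Gas5 negative in 17 of 17 alternatives each. The groups did not overlap in these genes, so most alternatives could not turn the sign. Leaving out libraries, the pseudocount, the filters, the trend setting and the replicate block all fix it in advance. Only the scalings, the ribosomal covariate or the GC and length alternative could have turned it. In those, Malat1 was 0.32 to 0.73, Neat1 0.17 to 0.43 and Gas5 −0.18 to −0.0064. Malat1 ranged from 0.16 to 0.90 (limma adjusted p from 0.0103 to 0.344), Neat1 from 0.17 to 0.44 (0.0192 to 0.295) and Gas5 from −0.18 to −0.0064 (0.146 to 0.967). The number of these genes called, 0, became 1 after rescaling without the most abundant genes, where 0.696% of all genes were called higher, and ranged from 0 to 2 with 1 library left out (2 without WT replicate 3, where 12.1% of all genes were called higher). Their median of 0.18 ranged from 0.11 to 0.29 with 1 library left out. Directions turned in Snhg3 (−0.017 to 0.26 with 1 library left out, lowest without LRP5-null replicate 1), in Snhg5 (−0.17 to 0.025, highest without WT replicate 1, and 0.037 with WT replicate 3 as the only WT library), in Rmrp with GC and length trends removed (−0.0013), and in Rpph1 (−0.43 to 0.082, positive without LRP5-null replicate 3 or WT replicate 1, and 0.016 with WT replicate 3 as the only WT library). The causes were not tested.

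Over all genes, the 52 calls became 3 with no filter, 29 with a mean of at least 5 TPM, 83 with median-ratio scaling, 95 after rescaling, 6 with the ribosomal share as a covariate, 6 with WT replicate 3 as the only WT library and 358 with GC and length trends removed, and ranged from 2 to 1920 with 1 library left out, the most without WT replicate 3. The GC and length alternative is void for the 10 genes as a group, since 5 of them had a value. Of 630 alternative values of single genes, 604 kept direction and side of the threshold, 18 passed it newly, 7 turned and 1 no longer passed. With the replicate block, 4 genes were called and 0 of the genes described. Whether the numbers pair the libraries was not settled. Deviations from the group means correlated at 0.23, −0.0075 and 0.13 for replicates 1, 2 and 3. Libraries of unlike number were not compared, so these values cannot decide it. Leaving out a library kept the intronic difference between 2.13 and 2.74 percentage points and the ribosomal difference between 0.567 and 1.62. TPM without counts and 3 libraries a group limit all of these values.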
